A study of Mus musculus with 8 samples.

Results

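Frizzled receptors are the multi-pass membrane proteins that bind WNT ligands at the cell surface. All 10 mouse genes of the family, Fzd1 to Fzd10, were found by symbol among the 17631 genes of a deposited comparison, and their group means are described here. A Frizzled holds the lipid of a secreted WNT in an extracellular cysteine-rich domain and passes the signal to Dishevelled inside the cell. With LRP5 or LRP6 as co-receptor the signal keeps beta-catenin from being destroyed, and with other partners it sets cell polarity and movement. WNT signalling is known to be needed for tooth root growth and for the formation of odontoblasts and cementum.

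RNA came from the apical part, where the root grows, of lower first molars of C57BL/6 mice at postnatal day 7.5. Mutant animals were Gli1-CreERT2;Runx2fl/fl and control animals Runx2fl/fl, with 4 libraries each. Both groups carried the floxed Runx2 alleles, and the labels give both the same tamoxifen in corn oil, injected into the peritoneum at postnatal day 3.5. The dose was 1.5 mg for each 10 g the animal weighed. CreERT2 is a recombinase that acts after tamoxifen, here under Gli1, so Runx2 can be deleted in Gli1-expressing cells and their descendants only. Controls lacked the recombinase, so its own effects, those of its driver allele and those of Runx2 loss cannot be told apart. The labels do not say whether a library is 1 animal or a pool, so the p-values rest on a spread between libraries that may be technical. The authors deposited 1 mean of normalised signal per gene and group, with no value per library. Neither an error nor a depth, nor in how many libraries a direction holds, can therefore be stated. Group means and p-values below are from the authors' deposited table unless another source is named, while log2 ratios, sums and values per kilobase were computed from it.

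The comparison asks how root tissue changes when cells that express Gli1 lose Runx2, a transcription factor without which bone does not form. In the authors' deposited table, the targeted gene Runx2 had a mean of 65.1 in mutants and 105.5 in controls (the authors' adjusted p = 0.0646). Gli1, the driver locus, had 19.9 in mutants and 38.8 in controls (log2 ratio -0.96, the authors' adjusted p = 0.0228). Only mutants carried the driver, so an effect of the driver allele on Gli1 and one of Runx2 loss cannot be told apart. With a trend of ratios on transcript GC content and exonic length subtracted, Gli1 had a log2 ratio of -0.85 and a recomputed adjusted p of 0.0728. Ddx3y, a gene of the Y chromosome, had 25.6 in mutants and 12.9 in controls (the authors' adjusted p = 0.0486). Eif2s3y, another, had 12.7 in mutants and 7.66 in controls (the authors' adjusted p = 0.0848). Subtracting the trend took their log2 ratios from 0.99 to 0.27 and from 0.73 to 0.24, which is no test of a difference in sex between the groups. Sex is not among the labels used here, and its part in the Frizzled values was not tested. Defining genes of the tooth were measured, among them the dentin gene Dspp at 7360 in mutants and 7714 in controls. Enamel genes made by ameloblasts were abundant too, with Amelx at 112174 in mutants and 174946 in controls and Ambn at 53601 in mutants and 72752 in controls.

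Promoter sequences in RefSeq (GRCm38.p6) were matched for 6 members, Fzd1, Fzd4, Fzd5, Fzd7, Fzd9 and Fzd10, as windows of 300 bases from 250 before to 50 after the start. Each of these windows held more CpG, the dinucleotide that methylation acts on, than the median window. The median window of 32851 held 7 CG dinucleotides, while the Frizzled windows held from 16 (Fzd1) to 53 (Fzd9). The Fzd1 window exceeded 67.0% of all windows and the Fzd9 window 99.5%. The 250 bases before the start are shown for Fzd7, the matched member with the highest level per kilobase, and Fzd5, the one with the lowest p-value, 5′ to 3′ on the strand of the gene with each CG in capitals. They lie at chr1:59481897-59482146 (plus) and chr1:64737751-64738000 (minus) and hold 17 and 32 CG dinucleotides.
Fzd7: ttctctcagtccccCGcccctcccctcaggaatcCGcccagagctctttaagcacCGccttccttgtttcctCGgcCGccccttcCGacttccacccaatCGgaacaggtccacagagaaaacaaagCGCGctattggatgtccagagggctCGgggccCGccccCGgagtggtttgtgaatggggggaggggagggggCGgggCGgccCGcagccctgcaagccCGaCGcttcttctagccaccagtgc
Fzd5: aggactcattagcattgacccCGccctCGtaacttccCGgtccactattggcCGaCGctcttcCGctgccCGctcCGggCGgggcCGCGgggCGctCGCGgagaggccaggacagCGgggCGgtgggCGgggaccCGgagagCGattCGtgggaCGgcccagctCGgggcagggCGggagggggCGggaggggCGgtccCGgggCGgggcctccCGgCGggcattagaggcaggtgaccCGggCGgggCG

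A core motif of RUNX factors, TGTGGT, was searched on both strands of the 300-base windows. It was in none of the 6 Frizzled windows and in 16.8% of all windows. A core motif of the TCF factors that act with beta-catenin, CTTTGA, was in 1 of the 6, that of Fzd1, and in 16.0% of all windows. The Fzd1 sequence at chr5:4758217-4758466 (minus) is shown as the 1 match, with its reverse complement TCAAAG in capitals. A match is not evidence of binding, and no match says only that these letters are not in this window.
Fzd1: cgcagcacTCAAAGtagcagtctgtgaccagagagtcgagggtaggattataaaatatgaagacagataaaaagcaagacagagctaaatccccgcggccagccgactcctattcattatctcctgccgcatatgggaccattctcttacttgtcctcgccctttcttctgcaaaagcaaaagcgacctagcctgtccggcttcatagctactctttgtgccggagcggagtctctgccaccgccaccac

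No Frizzled gene changed past the threshold between mutant and control molars. None of the 10 had an adjusted p under 0.05 in the authors' deposited table, against 0.788% of all genes (139 of 17631). Mutant means were higher for 6 members and lower for 4, beside 50.6% higher over all genes. The ratios of mutant over control in the authors' deposited table lay between 0.798 (Fzd5) and 1.20 (Fzd3 and Fzd1). The median log2 ratio of mutant over control was 0.062 for the 10 members and 0.0033 for all genes. Fzd5 was the single member with an unadjusted p under 0.05, a rule that 19.3% of all genes met. At a looser adjusted p of 0.1, met by 3.64% of all genes, again no member passed. The same held with the adjustment limited to genes whose higher mean was at least 1 (1.19% of genes called) and after subtracting the trend on GC content and length (0.125%). These p-values do not show that the levels were equal. Among genes with a control mean within 1.5-fold of a member's, the smallest absolute log2 ratio that the authors' test called was 0.31 to 0.67, and all 10 members lay below it.

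**Figure D1:**
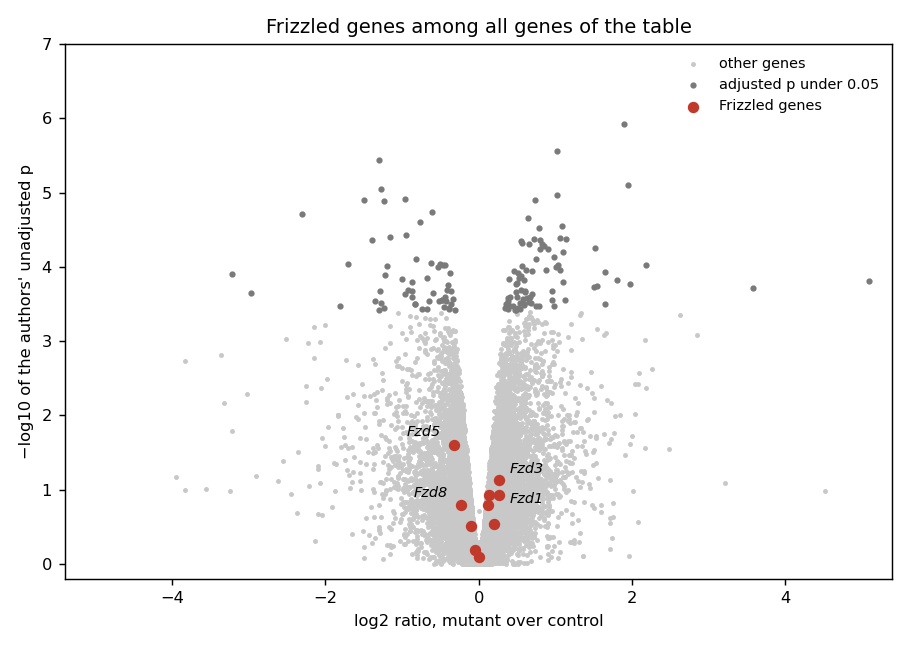
Log2 ratio of mutant over control (x axis) against −log10 of the authors' unadjusted p (y axis) for all 17631 genes, with genes past an adjusted p of 0.05 in dark grey and the 10 Frizzled genes in red. The Frizzled points lie between -0.33 (Fzd5) and 0.27 (Fzd3) on the x axis, and all are below the called genes.

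Levels spread much more widely between members than between genotypes. Exonic length ran from 2293 nt in Fzd9 to 12804 nt in Fzd3, so levels of different genes are given per kilobase of exon. Whether the deposited signal was already scaled by length is not given. If it was, this order corrects for length more than once. Per kilobase, Fzd2 had a normalised signal of 28.6 in mutants and 26.4 in controls. Fzd7 had 28.2 per kilobase in mutants and 25.6 in controls. Fzd1 followed at 19.6 per kilobase in mutants and 16.3 in controls. These receptors are each other's closest relatives in sequence. Together they held 59.0% of the family's signal as deposited in mutants and 54.6% in controls. Per kilobase they held 67.4% in mutants and 63.1% in controls. Next by the same scale came Fzd6 (12.5 per kilobase in mutants and 13.3 in controls), then Fzd8 (6.95 in mutants and 8.18 in controls) and Fzd5 (6.55 in mutants and 8.21 in controls). The lowest were Fzd10 (3.97 in mutants and 4.10 in controls), Fzd3 (3.19 in mutants and 2.65 in controls), Fzd4 (2.18 in mutants and 1.91 in controls) and Fzd9 (1.64 in mutants and 1.63 in controls). Without values per library, it cannot be said which neighbours in this order differ beyond their spread. Fzd2 and Fzd7, and in controls Fzd5 and Fzd8, were nearly level.

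**Figure D2:**
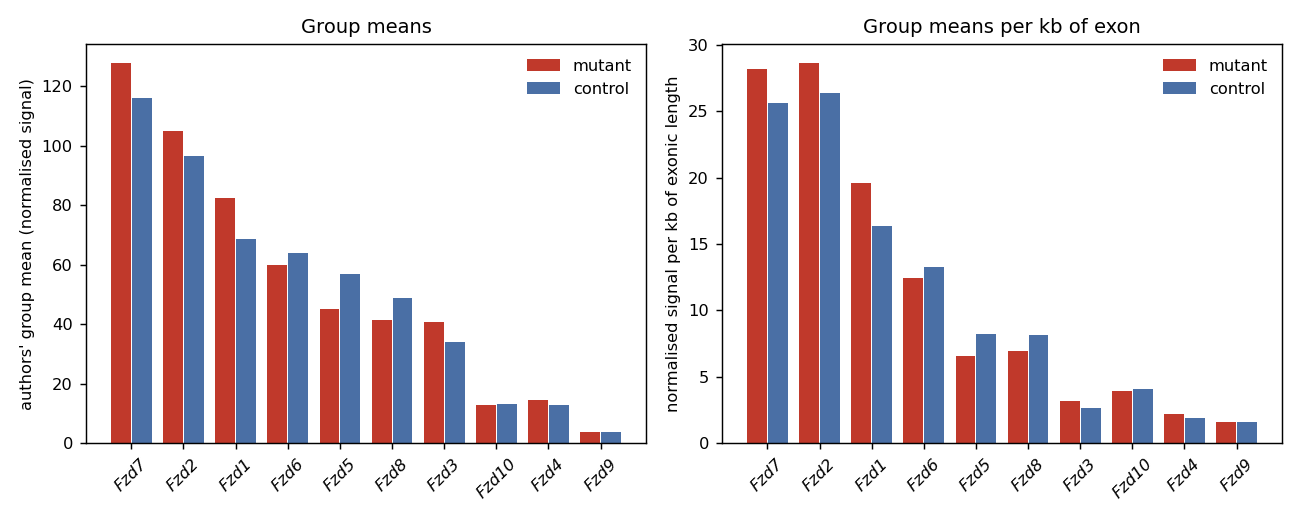
The authors' group means of the 10 Frizzled genes (left, normalised signal) and the same per kilobase of exonic length (right), with mutant bars left of control bars and no error bars because the table holds group means only. Mutant and control bars of a gene can be compared in both panels. Different genes can be compared in the right one only if the signal was not already scaled by length, which is not given. There Fzd2, Fzd7 and Fzd1 are highest, from 19.6 to 28.6 in mutants, and Fzd9 is lowest.

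Fzd1, Fzd2 and Fzd7 bind many WNTs and are known to act in beta-catenin signalling. All 3 had higher means in mutants, although none passed. Fzd7, known from mouse intestine as a receptor of stem cells, had 127.8 in mutants and 116.0 in controls (log2 ratio 0.14, the authors' adjusted p = 0.372). Fzd2, known as a receptor for Wnt5a, had 104.8 in mutants and 96.6 in controls (log2 ratio 0.12, the authors' adjusted p = 0.436). Fzd1 had 82.3 in mutants and 68.5 in controls (log2 ratio 0.27, the authors' adjusted p = 0.372). Summed, the group had 315.0 in mutants and 281.1 in controls, a ratio of 1.12. Subtracting the GC and length trend took these log2 ratios to 0.19 for Fzd7, 0.23 for Fzd2 and 0.35 for Fzd1. Fzd1 and Fzd2 then had recomputed unadjusted p-values of 0.0355 and 0.0392, which became 0.356 and 0.366 after adjustment over the genes fitted. The share of all genes with an unadjusted p under 0.05 after the subtraction is not given here, so no weight is put on these values.

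Fzd5 and Fzd8, a closely related pair, had the lowest ratios of the family. Fzd5, needed in mice for placental and yolk sac vessels and for Paneth cell maturation, had 45.3 in mutants and 56.7 in controls. That is 1.25-fold lower in the authors' deposited table, with a log2 ratio of -0.33. The authors' p of 0.0252 became 0.198 after adjustment. With the GC and length trend subtracted, Fzd5 had a log2 ratio of -0.27 and a recomputed unadjusted p of 0.0527, no longer under 0.05. Fzd8, whose mouse cysteine-rich domain was solved in complex with a Xenopus WNT, had 41.5 in mutants and 48.9 in controls (log2 ratio -0.24, the authors' adjusted p = 0.430). Summed, the pair had 86.8 in mutants and 105.6 in controls, a ratio of 0.822. Both log2 ratios stayed below 0 with each mean divided by its sum and with the trend subtracted. They also did with a pseudocount of 1, which cannot change a sign, and centred on all genes, which moves each ratio by only 0.0033. The pair made up 11.9% of the family's signal per kilobase in mutants and 15.1% in controls. An unconfirmed gene model on the other strand, Gm38058, covers part of Fzd5, and 16.4% of the 50-base windows of Fzd5 transcripts occur in it. Whether reads were counted by strand is not given in the sources used here, so their origin there cannot be told apart.

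Fzd3 and Fzd6 are known mainly for planar cell polarity, which in mice orients axons and hair. Fzd3 had 40.8 in mutants and 33.9 in controls (log2 ratio 0.27, the authors' adjusted p = 0.304). Its long transcript is the poorest in GC of the family, at 40.5%. Of 13128 protein-coding genes that reached a mean of 1 in mutants or controls, the eighth with the least GC had a median log2 ratio of 0.19. With the GC and length trend subtracted, which also removes any real change that follows it, Fzd3 stood at 0.019. The part of GC content and length in the Fzd3 value was not tested. Fzd6 had 60.0 in mutants and 64.1 in controls (log2 ratio -0.095, the authors' adjusted p = 0.586). A long noncoding gene on the other strand, Gm26704, holds 2.12% of the 50-base windows of Fzd6 transcripts. The sum of Fzd3 and Fzd6 was 100.8 in mutants and 98.0 in controls.

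Fzd4, Fzd9 and Fzd10 form the remaining sequence group, and together they held 6.87% of the family's signal per kilobase in mutants and 7.05% in controls. Fzd4, the receptor for Norrin in retinal vessels, had 14.7 in mutants and 12.8 in controls (log2 ratio 0.19, the authors' adjusted p = 0.568). The endothelial markers listed had higher means in 5 of 6 cases with none past the threshold, summing to 239.1 in mutants and 216.3 in controls, and their part in the Fzd4 value was not tested. Fzd9, whose loss in mice lowers bone formation, had 3.76 in mutants and 3.74 in controls (log2 ratio 0.0050, the authors' adjusted p = 0.913). Fzd10 had 12.9 in mutants and 13.3 in controls (log2 ratio -0.045, the authors' adjusted p = 0.836).

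**Figure D3:**
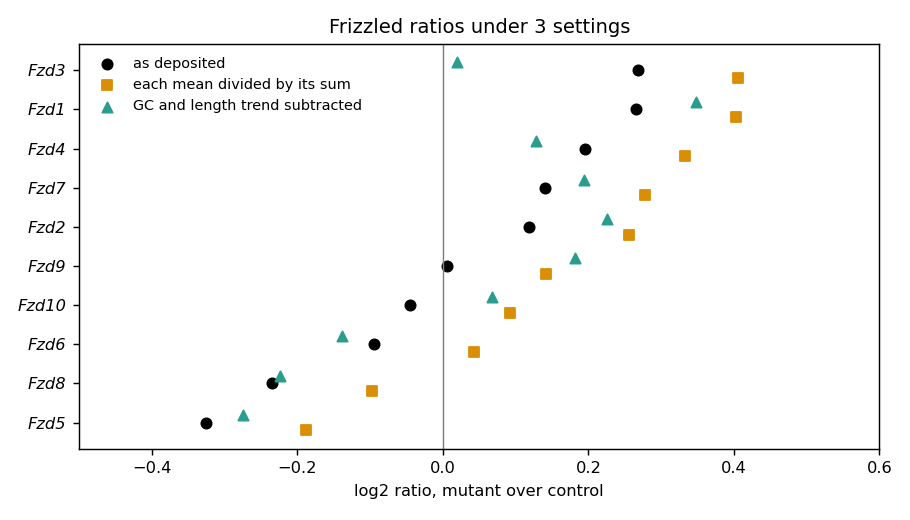
Log2 ratio of mutant over control (x axis) for each Frizzled gene as deposited (circles), with each group mean divided by its sum over all genes (squares) and with the GC and length trend subtracted (triangles). Fzd5 and Fzd8 are below 0 under all 3 settings, Fzd6 and Fzd10 change side, and Fzd3 is at 0.019 in the third.

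Added over the 10 members, the family had 533.9 in mutants and 514.5 in controls, a ratio of 1.04, and 1.05 per kilobase. The direction of small ratios depends on scaling. The means sum to 955256 in mutants and 1050684 in controls, and the enamel gene Amelx takes 11.7% of the sum in mutants and 16.7% in controls. Dividing each mean by its sum shifts every log2 ratio by 0.14. Mutant means were then higher for 8 members, among them Fzd6 (0.042) and Fzd10 (0.092), which relative to the shift keep their place. In bulk tissue, fewer cells of a type and less RNA per cell cannot be told apart. The 4 osteoblast markers listed summed to 1488 in mutants and 2660 in controls, most of it Bglap (1252 in mutants and 2234 in controls). All 4 had lower mutant means, 2 of them past the threshold. The 6 of ameloblasts and dental epithelium summed to 168069 in mutants and 250007 in controls, with 4 lower means and none past the threshold. Nearly all of that sum is Amelx and Ambn. The 2 with higher means were Krt5 (1222 in mutants and 1192 in controls) and Cdh1 (133.6 in mutants and 126.6 in controls). Krt14 had 923 in mutants and 973 in controls, and Epcam 15.3 in mutants and 18.3 in controls. The 5 of dental mesenchyme and follicle summed to 919 in mutants and 708 in controls, with 5 higher means, 1 past the threshold. The 5 erythroid markers, all with lower means and 1 past the threshold, summed to 318.1 in mutants and 716.9 in controls. With the GC and length trend subtracted none of the 4 marker calls held. The log2 ratio was -0.39 before and -0.31 after for Sp7 (recomputed adjusted p of 0.172) and -0.84 before and -0.58 after for Bglap (recomputed adjusted p of 0.257). It was 0.70 before and 0.52 after for Prrx1 (recomputed adjusted p of 0.276) and -1.27 before and -1.02 after for Hba-a1 (recomputed adjusted p of 0.261). No marker of the other lists passed as deposited. The 3 of odontoblasts and pulp summed to 8066 in mutants and 8406 in controls, and the 5 of macrophages to 306.0 in mutants and 256.9 in controls. The 5 of nerve and glia summed to 24.1 in mutants and 34.9 in controls, and the 5 of skeletal muscle to 2.93 in mutants and 5.43 in controls. The part of these cell types in the Frizzled values was not tested.

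The genes lie apart in the genome, on GRCm38 coordinates of GENCODE M21, whose starts are not always those of RefSeq. By these coordinates the promoter window of Fzd10 lies inside its gene, and that of Fzd9 mostly does. Fzd7 is on chromosome 1 from 59482424 to 59486955 (plus strand) and Fzd5 on chromosome 1 from 64730558 to 64737751 (minus strand). Chromosome 5 holds Fzd1 from 4753839 to 4758035 (minus strand), Fzd10 from 128600844 to 128604093 (plus strand) and Fzd9 from 135248938 to 135251230 (minus strand). Fzd4 is on chromosome 7 from 89404355 to 89413134 and Fzd2 on chromosome 11 from 102604396 to 102608058, both on the plus strand. Fzd3 is on chromosome 14 from 65192449 to 65262463 (minus strand), Fzd6 on chromosome 15 from 39006034 to 39038188 (plus strand) and Fzd8 on chromosome 18 from 9212163 to 9218136 (plus strand). The coding sequence lies in 1 exon in 7 members, in 2 exons in Fzd4 and in 6 exons in Fzd3 and Fzd6. No 50-base window, the read length, was shared between any pair of members, so reads of this length can separate the paralogs where they match exactly.

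Genes that supply, tune and relay Frizzled signals were described in 7 lists, against the same 0.788% of all genes called. The lists are not complete and leave out other genes of the WNT pathway. Among these, Dkk2 had 22.9 in mutants and 11.3 in controls (the authors' adjusted p = 0.0228, recomputed adjusted p of 0.0472 with the trend subtracted). Notum had 18.2 in mutants and 34.9 in controls (the authors' adjusted p = 0.0698). Retention and turnover gave 1 changed gene of 11. Shisa3 belongs to a family whose founding member, in Xenopus, holds immature Frizzled in the endoplasmic reticulum. It fell to 2.10 in mutants, against 5.08 in controls (2.42-fold, the authors' adjusted p = 0.0228). Its call held when the GC and length trend was subtracted (log2 ratio -1.27 before and -1.26 after, with a recomputed adjusted p of 0.0324). An unadjusted p under 0.05 was found for 5 of the 11 (45.5%, beside 19.3% of all genes), 2 with higher and 3 with lower means. Apart from Shisa3 these were 2 secreted R-spondins and 2 of the LGR receptors that bind R-spondins, which protect Frizzled from removal. Rspo1 had 3.02 in mutants and 5.62 in controls (log2 ratio -0.90, the authors' adjusted p = 0.0547). Lgr5 had 2.84 in mutants and 0.912 in controls (log2 ratio 1.64, the authors' adjusted p = 0.0670). Rspo3 had 1.73 in mutants and 0.958 in controls (log2 ratio 0.85, the authors' adjusted p = 0.111), and Lgr6 had 160.1 in mutants and 199.8 in controls (log2 ratio -0.32, the authors' adjusted p = 0.225). With the trend subtracted the recomputed adjusted p was 0.276 for Rspo1, 0.242 for Lgr5, 0.305 for Rspo3 and 0.396 for Lgr6. Control means of Lgr5 and Rspo3 were under 1, so their ratios rest on low signal. Of the ubiquitin ligase genes whose products remove Frizzled from the membrane, Rnf43 had 13.6 in mutants and 16.1 in controls (the authors' adjusted p = 0.294) and Znrf3 had 38.4 in mutants and 38.3 in controls (the authors' adjusted p = 0.969). The log2 ratios of the 11 ran from -1.27 to 1.64 around a median of 0.0032.

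Of 10 other genes with a Frizzled-type cysteine-rich domain, the secreted WNT binders Sfrp4 and Sfrp2 passed, 1 in each direction. Sfrp4 rose to 11.2 in mutants, against 6.46 in controls (the authors' adjusted p = 0.0318). Sfrp2 fell to 32.6 in mutants, against 85.9 in controls (the authors' adjusted p = 0.0318). With the trend subtracted neither passed (recomputed adjusted p of 0.0661 for Sfrp4 and 0.130 for Sfrp2), while the log2 ratios were 0.79 before and 0.72 after for Sfrp4 and -1.40 before and -1.28 after for Sfrp2. An unadjusted p under 0.05 was found for 3 genes with higher and 1 with lower means (40.0%, beside 19.3% of all genes). The median log2 ratio of the 10 was 0.084.

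Of 19 WNT ligands listed 14 were measured. None of them passed the authors' test, although 2 higher and 3 lower ones had an unadjusted p under 0.05 (35.7%, beside 19.3% of all genes). Lower mutant means were found for 11 (median log2 ratio -0.20, and -0.057 with the trend subtracted). By p-value Wnt3a led with 10.4 in mutants and 17.6 in controls (the authors' adjusted p = 0.0677). Wnt5a, the main ligand of beta-catenin-independent signalling, had 239.2 in mutants and 203.8 in controls (the authors' adjusted p = 0.179). None of the 10 co-receptors and partners passed, and 0 had an unadjusted p under 0.05, beside 19.3% of all genes (median log2 ratio 0.096). Tspan12, which helps Fzd4 respond to Norrin, had 4.20 in mutants and 3.22 in controls (the authors' adjusted p = 0.261), and the co-receptor gene Lrp6 had 103.0 in mutants and 90.0 in controls (the authors' adjusted p = 0.350).

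Inside the cell no listed gene passed. Of 10 Dishevelled and destruction complex genes 8 had lower mutant means (median log2 ratio -0.12, and -0.024 with the trend subtracted). In this list 0 had an unadjusted p under 0.05, beside 19.3% of all genes. The kinase gene Csnk1a1 had 240.5 in mutants and 213.5 in controls (the authors' adjusted p = 0.274), and Gsk3a had 81.7 in mutants and 90.1 in controls (the authors' adjusted p = 0.313). Of 9 measured planar polarity partners of Fzd3 and Fzd6, 4 had higher and 5 lower means (median log2 ratio -0.062). The 2 with an unadjusted p under 0.05 (22.2%, beside 19.3% of all genes) were Prickle3 and Invs. Prickle3 had 10.6 in mutants and 12.7 in controls (the authors' adjusted p = 0.163). Invs had 15.5 in mutants and 10.6 in controls (the authors' adjusted p = 0.239). Of 8 nuclear partners of beta-catenin 5 had lower means (median log2 ratio -0.051). The 2 with an unadjusted p under 0.05 (25.0%, beside 19.3% of all genes) were Tcf7 and Pygo2. Tcf7 had 47.7 in mutants and 65.9 in controls (the authors' adjusted p = 0.167). Pygo2 had 44.8 in mutants and 50.4 in controls (the authors' adjusted p = 0.253).

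**Figure D4:**
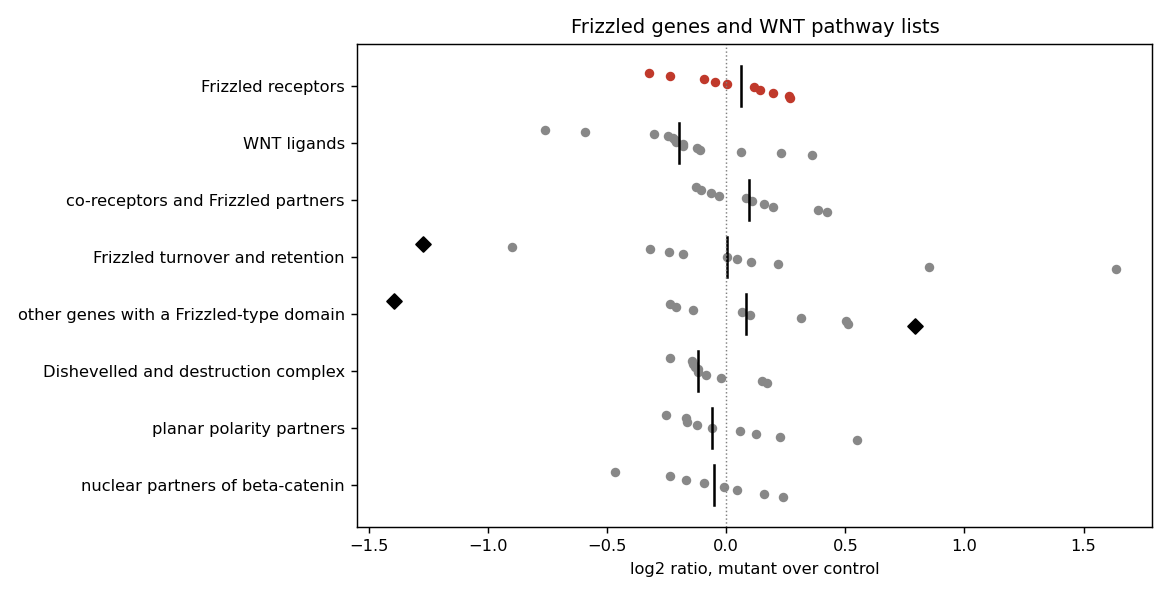
Log2 ratio of mutant over control (x axis) for each measured gene of the Frizzled family (red) and 7 WNT pathway lists (grey), with black diamonds for genes past an adjusted p of 0.05 and a bar at each median. The diamonds are Shisa3 (-1.27), Sfrp2 (-1.40) and Sfrp4 (0.79), while the Frizzled genes stay within -0.33 and 0.27.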

How the data were processed

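Per the file headers, the deposited table compares KO with WT libraries in a gene-specific analysis, and these are called mutant and control here. The submitters' processing notes name STAR 2.6.1d, Partek and mm10 but not what each did. How reads were counted and normalised, on which annotation, with which filters and model, is not given in the sources used here. The authors deposited group means (normalised signal), their ratio, a signed fold change (a score that restates the ratio), p-values and an FDR. The deposited column headed total counts is signal too, being 4 times both means added, to a relative tolerance of 1e-06, for 17631 of 17631 genes. The FDR is printed as adjusted p and was matched by a Benjamini-Hochberg adjustment of the authors' p-values over the whole table. No test on libraries was possible, so the authors' adjusted p under 0.05 is the call.

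Log2 ratios, sums and levels per kilobase were computed in Python 3.11.15 (pandas 2.3.3, scipy 1.17.1). Symbols were matched to GENCODE M21 (GRCm38, the assembly mm10 names) for 17562 genes, giving union exonic length and transcript GC content. For the GC and length subtraction, smooth terms (mgcv 1.9.3, R 4.3.3) were fitted to signed z and to log2 ratios and subtracted. They took 22.2% of the variance of z. It was tested on simulated data, and it also removes any real change that follows the trend. A planned comparison of protein sequences was not made.

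The members, the 7 lists, the 9 marker lists, the subfamilies and the tests were chosen with earlier results of these data known. All 10 members are named. Of each list the genes past the threshold are named, or otherwise the 2 with the lowest p-value, and Rspo1, Lgr5, Rspo3, Lgr6, Rnf43 and Znrf3 were added after their values were seen. Dkk2 and Notum, which are in none of the lists, were also added after their values were seen.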

Additional observations from a re-analysis of the deposited data

How the results depend on the processing

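No Frizzled gene passed with the adjustment limited to genes whose higher mean was at least 1, at an adjusted p of 0.1, or with the GC and length trend subtracted, and 1 passed at an unadjusted p under 0.05. Dividing each mean by its sum adds 0.14 to the log2 ratio of every gene of the table. With that shift the median log2 ratio of the 10 members was 0.20 and the ratio of their summed means 1.14. The GC and length subtraction moved that median to 0.097. The summed ratio was 1.05 per kilobase and, in an alternative chosen after seeing the data, 1.09 without Fzd5 and Fzd8. Per kilobase, 6 of 10 members kept their place in the order of control means. A pseudocount of 1 cannot change the sign of a log2 ratio, and centring on the median moves each by only 0.0033. Of 40 single-gene log2 ratios under 4 alternatives (a pseudocount of 1, centring on the median, division by the sum, trend subtraction), 3 changed sign. These were Fzd6 (0.042) and Fzd10 (0.092) when divided by the sum, by the size of the shift itself, and Fzd10 (0.067) with the trend subtracted. For Fzd10 the trend value subtracted was -0.11, beside a log2 ratio of -0.045 as deposited. With the trend subtracted 22 genes were called in the whole table (0.125%), against 139 without. No paired analysis was possible because the table holds no values per library, and for the same reason no library could be left out. Depth per library is unknown, and Fzd9, at a mean of 3.76 in mutants and 3.74 in controls, is the member most exposed to low signal.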
